A study of Mus musculus with 20 samples.

Results

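Interferon response genes are the genes that cells switch on when an interferon binds its receptor. They were taken here as 45 gene symbols listed for this pathway and matched by symbol to the count table. Of these, 38 had an intact line in the table, out of 23993 intact genes in all, and each of the 38 passed the filter on low counts, so 10207 genes with 38 members among them were tested. Cmpk2, Ifi27, Parp14, Dtx3l and Parp9 had displaced lines and were not used, and Mx1 and Mx2 were not analysed here.

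Liver mRNA came from 20 female mice, and each library was made from 1 animal. The mice were fed oral combined contraceptives (OC) or vehicle in the diet and either had voluntary wheel running (VWR) or were sedentary. The 4 groups of 5 were OC sedentary, vehicle sedentary, OC running and vehicle running. No genetic change was named for any group. The labels used here do not give the mouse strain, the age, the hormones in the diet, the dose or the length of treatment. Totals ran from 10883936 to 16134618 counts per library. Single libraries held 18 to 30311 counts for a member, the lowest being Cxcl10 in OC running replicate 2. The 7 used of 15 hepatocyte marker genes summed to between 85548 and 199923 CPM (counts scaled to a common library size, with TMM factors) in every library. Alb, the gene of serum albumin, led that list and fell on OC by 0.77 and 0.79 on the log2 scale in sedentary and running mice. Tat, on the same list, rose by 0.68 and 0.67. In each activity group 3 of the 7 were called lower and 1 higher at an adjusted p of 0.05 (57.1%). Of all tested genes 16.0% were called in sedentary and 13.0% in running mice. The hepatocyte sum ran from 98592 to 124482 CPM in OC sedentary libraries and from 160031 to 191894 CPM in vehicle sedentary libraries. Alb alone averaged 80023 CPM in OC sedentary and 136772 CPM in vehicle sedentary mice, so Alb made up most of these sums.

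Type I interferons bind IFNAR1 and IFNAR2 and act through JAK1, TYK2, STAT2 and IRF9 on the interferon-stimulated response element (ISRE). Interferon gamma acts through JAK1 and JAK2 on the gamma-activated site (GAS). In liver, hepatocytes, Kupffer cells and sinusoidal endothelial cells all respond, and the induced genes encode sensors of viral RNA, antiviral effectors, cell-autonomous defence GTPases and chemokines that draw lymphocytes.

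On the contraceptive diet the interferon response genes did not move as a block. A subset was lower, made up of the guanylate-binding proteins Gbp2, Gbp3 and Gbp7, the GTPase Irgm2, the chemokines Cxcl9 and Cxcl10 and the antibody receptor Trim21. Ifi35, Irf7 and Bst2 were higher, and the other 28 members did not pass the test. With both activity groups averaged, 10 of 38 members (26.3%) passed an adjusted p of 0.05, 3 higher and 7 lower, against 22.7% of all tested genes (11.8% higher and 10.9% lower). In sedentary mice 4 of 38 (10.5%) passed, 1 higher and 3 lower, against 16.0% of all tested genes (8.96% higher and 7.07% lower). In running mice 6 of 38 (15.8%) passed, 2 higher and 4 lower, against 13.0% (7.08% higher and 5.94% lower). By direction, lower calls made up 18.4% of the members averaged (background 10.9%), 7.89% in sedentary mice (7.07%) and 10.5% in running mice (5.94%). Higher calls made up 7.89% averaged (background 11.8%), 2.63% in sedentary mice (8.96%) and 5.26% in running mice (7.08%). Averaged over activity, the share of lower calls was thus above the background and that of higher calls under it. In sedentary mice the share of lower calls lay near the background, as did that of higher calls in running mice. The 7 lower members averaged include Irgm2, whose call was lost in 16 of 20 fits that left out 1 library. None of these differences was tested. Adjusted p-values throughout are from the edgeR quasi-likelihood test with Benjamini-Hochberg adjustment over the 10207 genes, and log2 fold changes are OC over vehicle unless stated.

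The median log2 fold change of the 38 members was -0.14 in sedentary mice, -0.13 in running mice and -0.10 averaged, against -0.01, 0.01 and 0.00 over all tested genes. Values were below 0 for 26 members in sedentary mice (68.4%, against 51.8% of all tested genes), 25 in running mice (65.8%, against 49.0%) and 26 averaged (68.4%, against 49.9%). With single libraries left out, the median of the members ran from -0.21 to -0.04 in sedentary mice and from -0.14 to -0.05 averaged. The values of -0.04 and -0.05 came without vehicle sedentary replicate 2, where all tested genes had medians of 0.00 and 0.01. In running mice the median of the members ran from -0.19 to -0.06. When counts were scaled by their totals alone, the median of all tested genes moved to 0.10, 0.12 and 0.11, and that of the members to -0.03, -0.02 and 0.01. The members thus stayed below the median of all genes under either scaling, while the sign of their own median in the averaged comparison turned. That scaling also changed the split of calls in the averaged comparison, to 5 higher and 4 lower members and to 2550 higher and 584 lower among all tested genes, against 1207 higher and 1111 lower genes with TMM. A fold change had the same sign in sedentary and running mice for 23 of 38 members (60.5%) and for 61.0% of all tested genes.

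**Figure D1:**
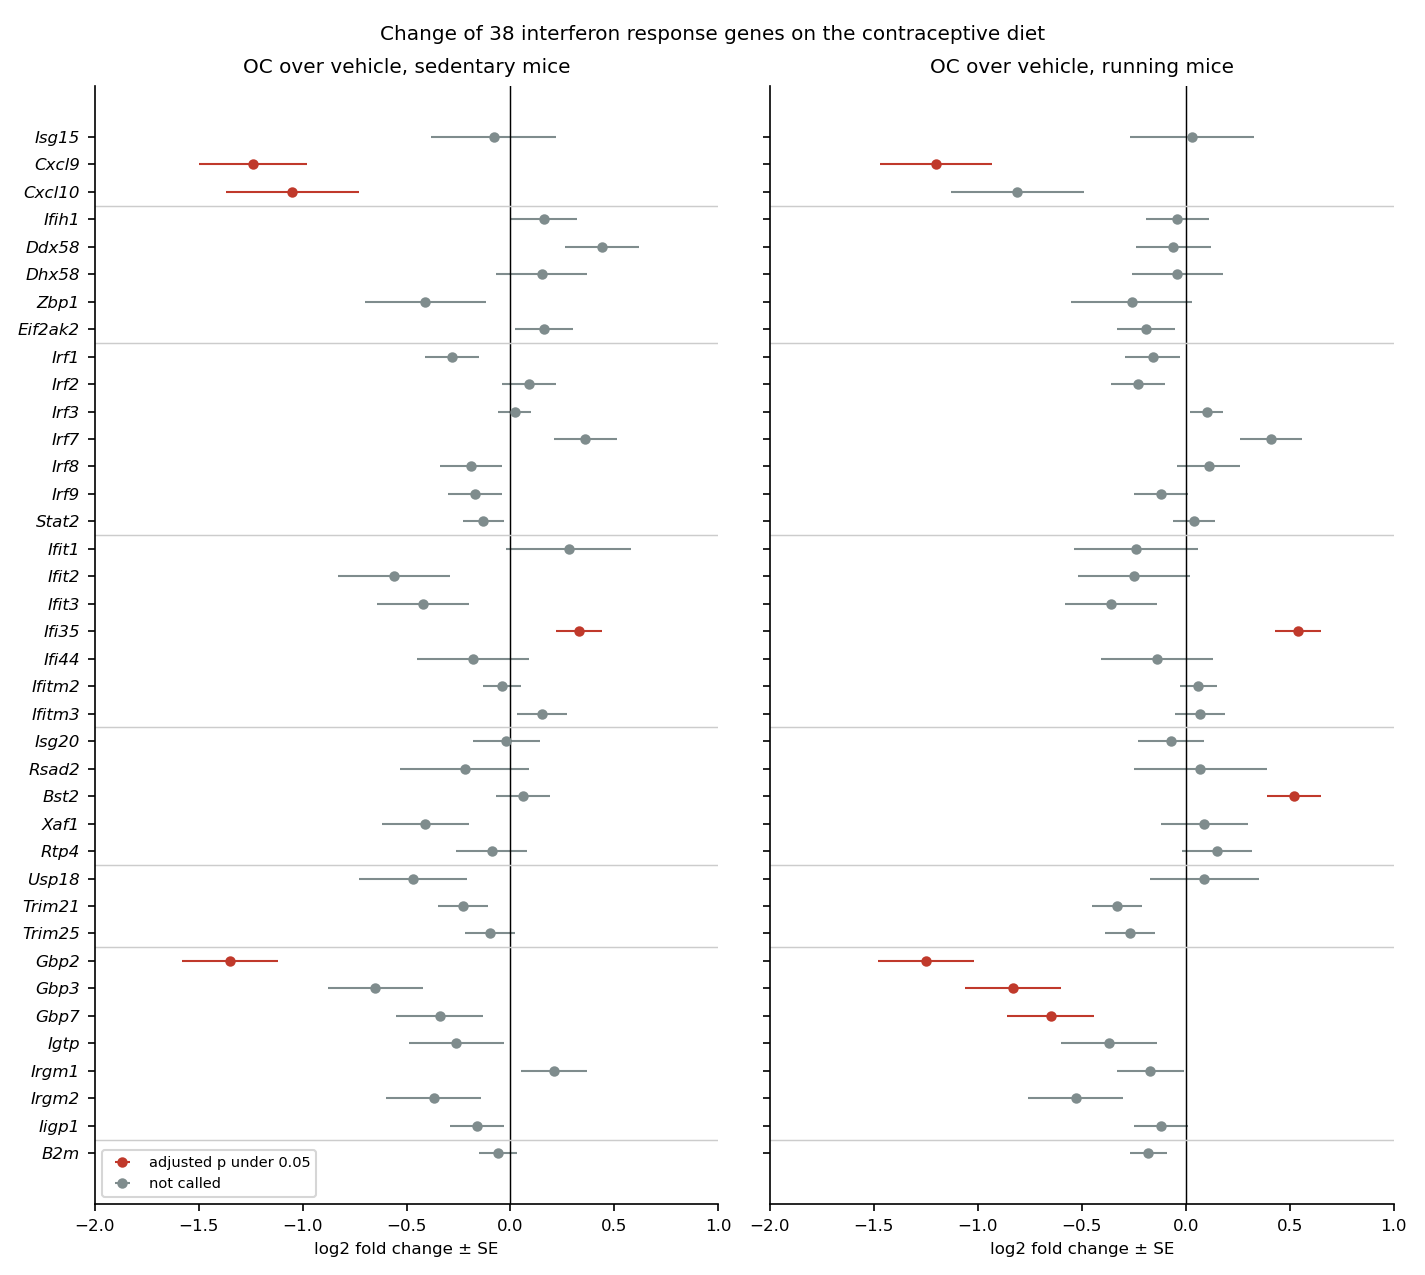
Log2 fold change (OC over vehicle) with its standard error for the 38 interferon response genes, in sedentary mice (left) and running mice (right), ordered by role and divided by grey lines. Red points passed an adjusted p of 0.05, 4 on the left and 6 on the right; the points farthest to the left are Gbp2 and Cxcl9 in both panels.

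Promoters are printed for Gbp2, Gbp3, Gbp7 and Cxcl10, which were lower on OC, for Bst2, which was higher, and for Isg15, which was not called. These 6 are examples picked from the 21 members whose windows hold an ISRE core. Each sequence is from RefSeq, build GRCm38.p6, and runs 5′ to 3′ from 250 bases before the annotated start toward it. Capitals mark exact matches of the ISRE core, which is GAAA, any 2 bases and GAAA again, on either strand, and of the GAS core TTCNNNGAA, which reads the same on both strands. The Gbp2 sequence was cut to 219 bases because GENCODE begins that gene upstream of the RefSeq start, so that its ISRE core lies inside the gene as GENCODE draws it.
Gbp2, chr3:142620413-142620631, plus strand: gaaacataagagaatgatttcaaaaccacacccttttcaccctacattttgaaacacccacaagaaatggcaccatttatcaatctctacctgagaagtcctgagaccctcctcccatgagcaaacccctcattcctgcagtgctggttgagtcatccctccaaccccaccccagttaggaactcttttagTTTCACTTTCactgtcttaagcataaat
Gbp3, chr3:142559794-142560043, plus strand: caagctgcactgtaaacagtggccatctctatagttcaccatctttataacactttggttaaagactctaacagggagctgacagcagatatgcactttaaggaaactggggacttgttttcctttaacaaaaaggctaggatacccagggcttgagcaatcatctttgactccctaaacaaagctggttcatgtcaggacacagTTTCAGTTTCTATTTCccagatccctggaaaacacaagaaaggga
Gbp7, chr3:142530086-142530335, plus strand: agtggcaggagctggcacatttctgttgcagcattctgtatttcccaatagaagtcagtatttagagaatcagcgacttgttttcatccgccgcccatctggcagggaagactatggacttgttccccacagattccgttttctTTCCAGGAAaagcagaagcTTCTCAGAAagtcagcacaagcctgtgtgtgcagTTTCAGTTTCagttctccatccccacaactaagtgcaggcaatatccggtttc
Cxcl10, chr5:92348890-92349139, minus strand: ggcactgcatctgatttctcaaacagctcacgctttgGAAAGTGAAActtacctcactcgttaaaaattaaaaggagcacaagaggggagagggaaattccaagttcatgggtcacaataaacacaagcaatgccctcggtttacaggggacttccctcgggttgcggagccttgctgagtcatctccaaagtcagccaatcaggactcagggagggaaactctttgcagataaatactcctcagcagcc
Bst2, chr8:71537473-71537722, minus strand: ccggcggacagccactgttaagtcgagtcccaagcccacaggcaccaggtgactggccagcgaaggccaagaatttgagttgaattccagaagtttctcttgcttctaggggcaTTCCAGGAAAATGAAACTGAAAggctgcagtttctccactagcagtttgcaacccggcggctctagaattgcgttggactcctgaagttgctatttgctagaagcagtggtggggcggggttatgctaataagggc
Isg15, chr4:156200819-156201068, minus strand: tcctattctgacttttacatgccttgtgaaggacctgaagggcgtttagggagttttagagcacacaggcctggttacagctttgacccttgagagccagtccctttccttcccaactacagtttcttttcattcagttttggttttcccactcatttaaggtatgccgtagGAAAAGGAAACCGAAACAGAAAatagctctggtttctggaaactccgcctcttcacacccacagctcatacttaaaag

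In Gbp2 the ISRE core lay 59 to 50 bases before the RefSeq start, and in Gbp3 a pair of overlapping cores lay between 45 and 30 bases before it. Gbp7 held a core at 53 to 44 bases and 2 GAS cores further upstream. The Cxcl10 core lay at 213 to 204 bases. In Bst2 a GAS core overlapped the first of 2 ISRE cores, and Isg15 held 3 overlapping ISRE cores. The search window ran from 250 bases before to 50 bases after each start. Of the 38 members 33 had a promoter entry, and Dhx58, Usp18, Zbp1, Rtp4 and Iigp1 had none. An ISRE core was present in 21 of the 33 (63.6%), against 3.99% of all 27025 genes with an entry and 3.44% of all 32851 promoter windows. A GAS core was present in 12 of the 33 (36.4%), against 9.55% of genes and 8.30% of windows. These genes are listed as interferon-induced, so this describes the list. Among the 10 members called for the diet 7 held an ISRE core (70.0%) and 4 a GAS core (40.0%). Among the 23 uncalled members with an entry the shares were 60.9% and 34.8%. Irf7 and Cxcl9 were called and held no exact match in the window.

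**Figure D2:**
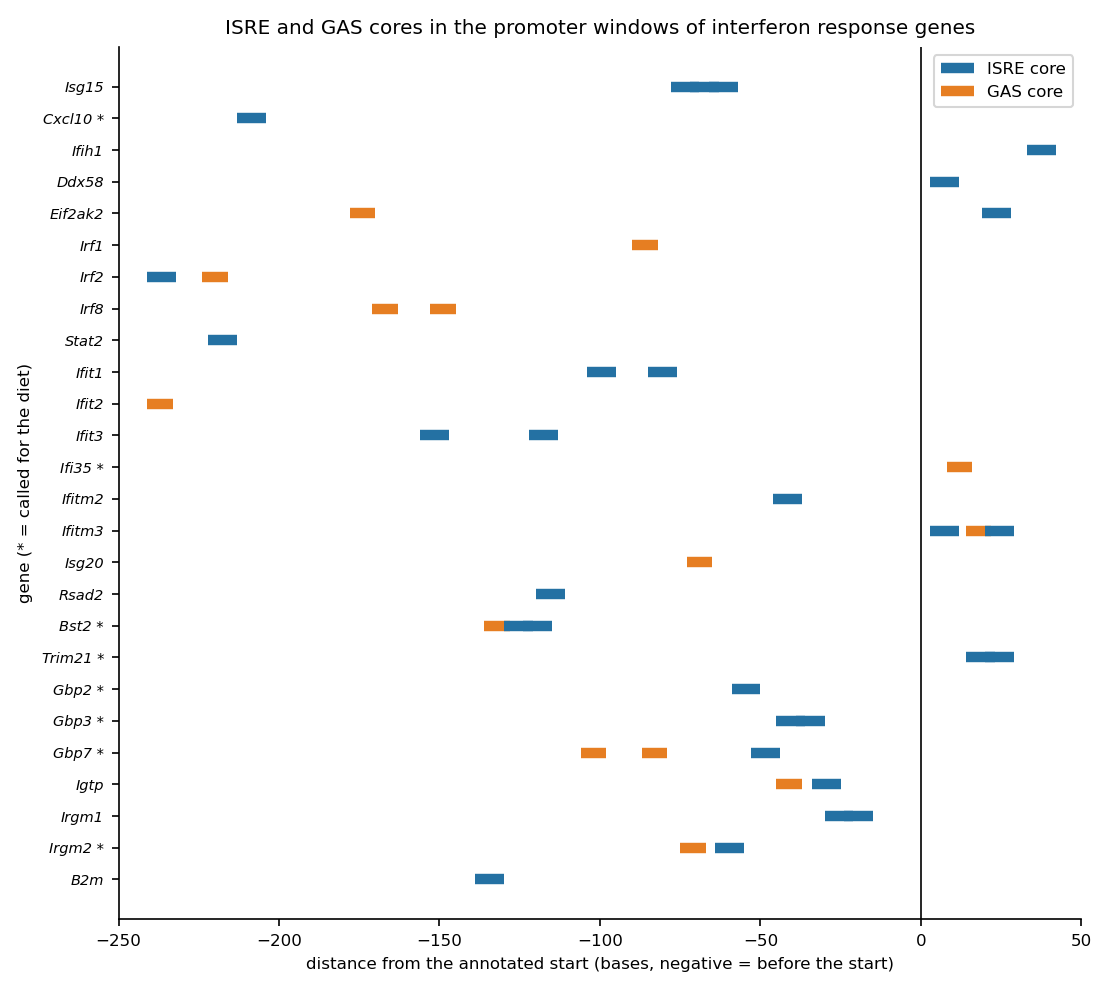
Positions of ISRE cores (blue) and GAS cores (orange) in the promoter windows, on an axis of bases from the annotated start, for the members that hold at least 1 match. Stars mark genes called for the diet; starred and unstarred genes both hold matches before and after the start.

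The GTPases of the GBP and IRG families attack membranes around intracellular microbes and are strongly induced by interferon gamma. Of the 7 members of these families 4 were lower on OC with activity averaged, none was higher, against 10.9% of all tested genes lower and 11.8% higher. With library totals alone 2 were lower, Gbp2 and Gbp3. The median log2 fold change of the family was -0.45, between -0.46 and -0.33 under the other scalings and tests run. Gbp2, Gbp3 and Gbp7 lie near each other on the plus strand of chromosome 3 (GRCm38, GENCODE vM21), with Gbp2 at 142620602 to 142638008, Gbp3 at 142560026 to 142573209 and Gbp7 at 142530342 to 142550149. Gbp2 stood at 7.95, 7.02, 11.9, 8.68 and 8.22 CPM in OC sedentary mice, against 20, 26.3, 28.6, 23 and 13.3 CPM in vehicle sedentary mice. In running mice it was 5.89, 6.24, 7.46, 8.78 and 8.46 CPM on OC, against 21.8, 11.7, 13.1, 13.8 and 27.7 CPM on vehicle. The OC and vehicle libraries of Gbp2 did not overlap in either activity group. Its log2 fold change was -1.35 (SE 0.23, adjusted p = 0.000539) in sedentary mice, 2.55-fold lower, and -1.25 (SE 0.23, adjusted p = 0.00117) in running mice, 2.39-fold lower. Averaged over activity the value was -1.30 (SE 0.16, adjusted p = 6.6e-06). Groups failing to overlap with OC lower were seen for 4.01% of all tested genes in sedentary mice and 4.95% in running mice. In the opposite direction the sedentary groups did not overlap for 7.01% of all tested genes and for 0 members. Gbp2 was the 1 such member in sedentary mice, and Gbp2 and Cxcl9 were the 2 in running mice.

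Gbp3 stood at 19.6, 24.3, 30.3, 19.1 and 22.0 CPM in OC sedentary mice, against 33.7, 34.3, 40.6, 48.4 and 23.9 CPM in vehicle sedentary mice. OC running mice had 16.1, 17.1, 18, 27.7 and 25.1 CPM, against 55.0, 23.1, 29.2, 29.2 and 48.4 CPM in vehicle running mice. The OC libraries lay mostly below the vehicle libraries, but the groups overlapped in both activity states. Gbp3 had a log2 fold change of -0.65 (SE 0.23, adjusted p = 0.0611) in sedentary mice and of -0.83 (SE 0.23, adjusted p = 0.0234) in running mice, and of -0.74 (SE 0.16, adjusted p = 0.00255) averaged. In DESeq2 Gbp3 was also called in sedentary mice (adjusted p = 0.0273). The call in running mice was lost without vehicle running replicate 1 (-0.65, adjusted p = 0.0715) or 5 (-0.72, adjusted p = 0.0584), or OC running replicate 1 (-0.75, adjusted p = 0.072) or 3 (-0.78, adjusted p = 0.0637).

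Gbp7 stood at 37.3, 29.2, 35.3, 25.1 and 28.9 CPM in OC sedentary mice, against 36.5, 35.4, 48.3, 51.2 and 26.1 CPM in vehicle sedentary mice. With wheels, the OC libraries held 17.9, 18.3, 21.9, 31.4 and 29.2 CPM, against 51.4, 25.5, 30.5, 35.0 and 44.5 CPM in the vehicle libraries. Here the groups overlapped widely in sedentary mice and by fewer libraries in running mice. The log2 fold change of Gbp7 was -0.34 (SE 0.21, adjusted p = 0.268) in sedentary mice, -0.65 (SE 0.21, adjusted p = 0.0409) in running mice and -0.50 (SE 0.15, adjusted p = 0.017) averaged. The running call was lost in 9 of the 20 fits that left out 1 library, with adjusted p up to 0.125 without vehicle running replicate 1. With library totals alone Gbp7 was not called in running mice (adjusted p = 0.0876) or averaged (-0.38, adjusted p = 0.0579), and without a low-count filter it was not called in running mice (adjusted p = 0.0643).

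Irgm2 encodes a regulatory GTPase of the IRG family and lies at 58199618 to 58222782 on the plus strand of chromosome 11. Irgm2 stood at 67.0, 51.0, 93.4, 69.9 and 51.7 CPM in OC sedentary mice, against 77.0, 92.9, 134, 81.4 and 45 CPM in vehicle sedentary mice. Among running mice the values of Irgm2 were 47.6, 42.4, 39.6, 61.7 and 47.6 CPM on OC, against 84.1, 46.9, 74.7, 65.8 and 73.0 CPM on vehicle. The groups overlapped in both activity states. Its averaged log2 fold change was -0.45 (SE 0.16), and it passed the threshold narrowly (adjusted p = 0.048). This call was lost in 16 of 20 fits that left out 1 library and held only without vehicle sedentary replicate 5, vehicle running replicate 2, OC sedentary replicate 3 or OC running replicate 4, with values from -0.54 to -0.34 and adjusted p up to 0.0952. It was also lost with library totals (adjusted p = 0.119), without a low-count filter (0.0712) and in limma voom (0.0597). Irgm2 overlaps Igtp, another IRG GTPase, by 7974 bases of the plus strand of chromosome 11, and reads there cannot be told apart by strand. Igtp itself averaged 49.2 ± 11.2 CPM in OC sedentary and 59.1 ± 21.2 CPM in vehicle sedentary mice, and 37.8 ± 8.60 CPM in OC running and 48.8 ± 11.2 CPM in vehicle running mice (SD, n = 5 each), with an averaged adjusted p of 0.17. Irgm1 had log2 fold changes of 0.21 in sedentary and -0.17 in running mice, neither called.

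Iigp1, the most abundant of these GTPases, did not pass the test. Iigp1 was measured at 403, 384, 485, 429 and 432 CPM in OC sedentary mice, against 429, 417, 590.0, 514 and 424 CPM in vehicle sedentary mice. In running mice it was 297, 359.8, 381, 427 and 404 CPM on OC, against 429, 307, 389, 379.9 and 519 CPM on vehicle. Libraries of both diets covered much of the same range. The averaged log2 fold change of Iigp1 was -0.14 (SE 0.09, adjusted p = 0.318). The GBP, IRG, IFIT and IFITM genes belong to families of similar copies, and the counting program and its handling of shared reads are not given in the sources used here, so reads may be split between copies.

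**Figure D3:**
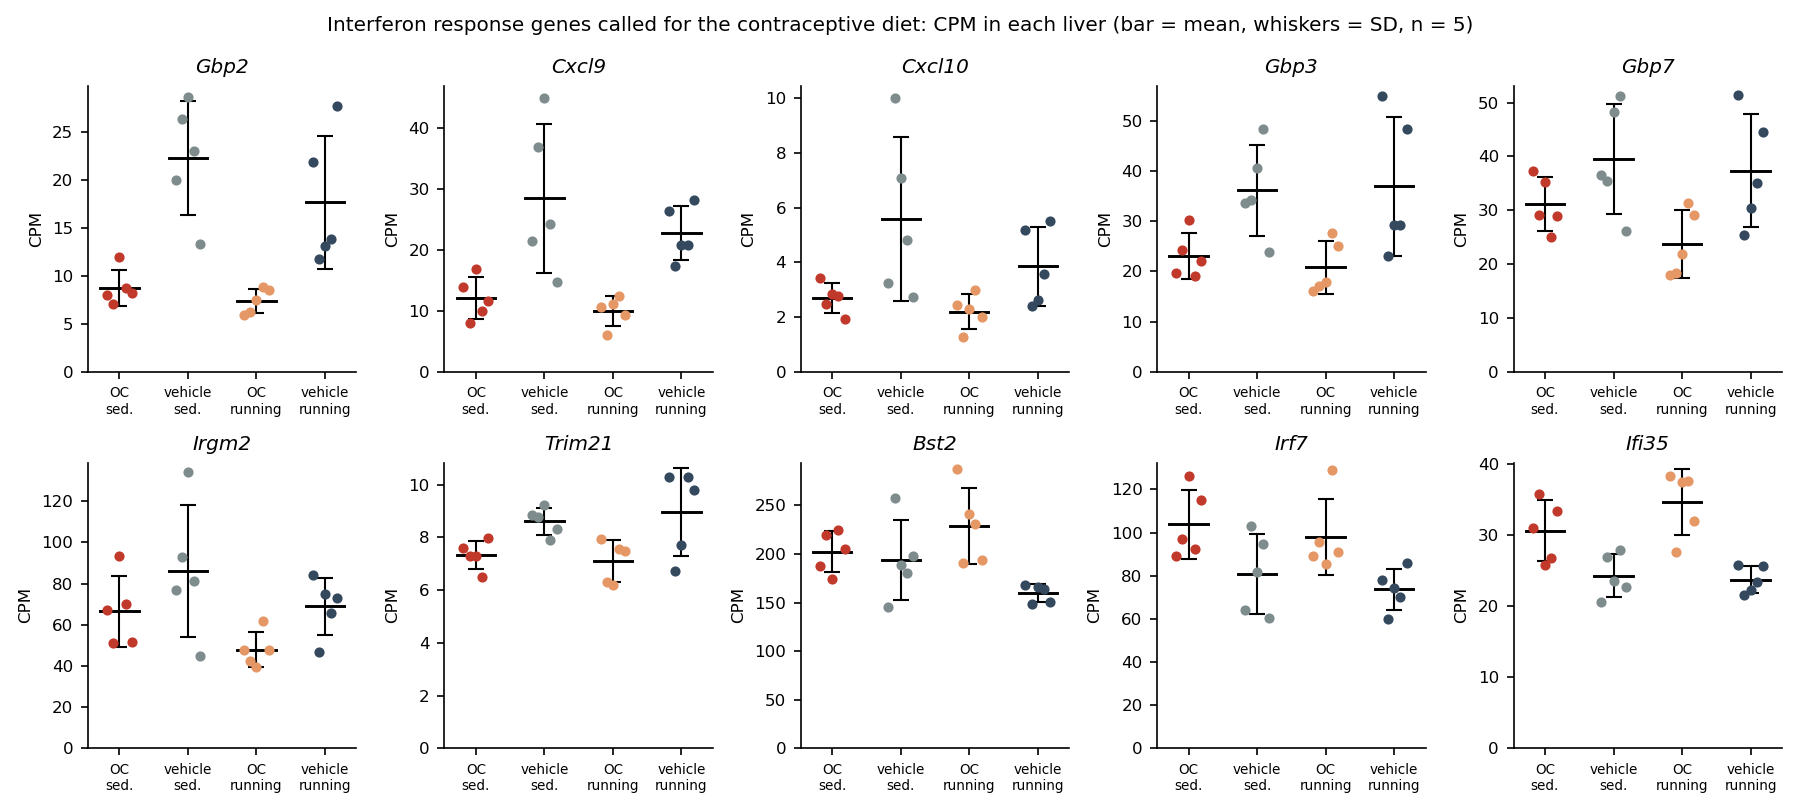
CPM of the 10 called members in each liver, with OC beside vehicle for sedentary mice and then for running mice; points are libraries, bars are means and whiskers are SD (n = 5). Gbp2 separates the diets in both activity states, at 7.02 to 11.9 CPM against 13.3 to 28.6 CPM in sedentary mice, while Irgm2 and Gbp7 overlap.

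Cxcl9 and Cxcl10 encode chemokines that attract CXCR3-bearing T and NK cells, and Isg15 encodes a ubiquitin-like protein that is also secreted. Both chemokines were lower on OC, while Isg15 was not called. Cxcl9 lies at 92321347 to 92328079 and Cxcl10 at 92346638 to 92348889 on the minus strand of chromosome 5. Cxcl9 stood at 13.9, 7.93, 16.9, 10 and 11.6 CPM in OC sedentary mice, against 21.5, 36.8, 44.9, 24.2 and 14.7 CPM in vehicle sedentary mice. OC running mice had 10.6, 6.03, 11.1, 12.5 and 9.37 CPM, against 26.3, 17.4, 20.8, 20.8 and 28.2 CPM in vehicle running mice. The diets overlapped in sedentary mice through OC replicate 3 and vehicle replicate 5, and did not overlap in running mice. Cxcl9 was 2.36-fold lower in sedentary mice (log2 fold change -1.24, SE 0.26, adjusted p = 0.00372) and 2.29-fold lower in running mice (-1.20, SE 0.27, adjusted p = 0.00554), with an averaged adjusted p of 8.49e-05.

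Cxcl10 stood at 3.43, 2.47, 2.84, 2.78 and 1.94 CPM in OC sedentary mice, against 3.23, 10, 7.06, 4.82 and 2.74 CPM in vehicle sedentary mice. With wheels, the OC libraries held 2.43, 1.26, 2.31, 3.0 and 2.01 CPM, against 5.19, 2.4, 2.61, 3.58 and 5.5 CPM in the vehicle libraries. Vehicle sedentary replicates 2 and 3 stood highest, and the groups overlapped in both activity states. Cxcl10 had a log2 fold change of -1.05 (SE 0.32, adjusted p = 0.028) in sedentary mice and -0.81 (SE 0.32, adjusted p = 0.103) in running mice, and of -0.93 (SE 0.23, adjusted p = 0.00474) averaged. The sedentary call was lost when vehicle sedentary replicate 2 (-0.73, adjusted p = 0.0912) or 3 (-0.95, adjusted p = 0.0651) was left out. It was lost likewise when OC sedentary replicate 2 was dropped (-1.01, adjusted p = 0.0609) or its replicate 5 (-0.95, adjusted p = 0.0709), and in limma voom (-0.90, adjusted p = 0.0618). Isg15 averaged 16.2 ± 3.46 CPM in OC sedentary and 17 ± 8.02 CPM in vehicle sedentary mice, and 16.3 ± 5.44 CPM in OC running and 15.9 ± 4.99 CPM in vehicle running mice (SD, n = 5 each), with an averaged log2 fold change of -0.02 (SE 0.21).

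Marker genes of other cell types were measured beside these falls. In bulk liver, fewer cells of a type and less RNA per cell cannot be told apart. The 11 used of 20 listed lymphocyte and NK cell markers summed to 9.37 to 14.1 CPM in OC sedentary libraries and 15.4 to 19.3 CPM in vehicle sedentary libraries, with no overlap. In running mice the same sums were 9.05 to 14.9 CPM on OC and 9.70 to 13.9 CPM on vehicle, which overlapped. The 7 used of 11 stellate cell and fibroblast markers summed to 328 to 527 CPM in OC sedentary and 515 to 688 CPM in vehicle sedentary libraries, and to 322 to 494 CPM in OC running and 482 to 610.1 CPM in vehicle running libraries. The 10 used of 15 Kupffer cell and macrophage markers summed to 594 to 820.1 CPM in OC sedentary and 587 to 885 CPM in vehicle sedentary libraries, and to 525 to 829.5 CPM in OC running and 473 to 698 CPM in vehicle running libraries. The 7 used of 12 dendritic cell markers summed to 9.31 to 13.7 CPM in OC sedentary and 11 to 27.0 CPM in vehicle sedentary libraries. In running mice these sums were 10.1 to 12.2 CPM on OC and 10.1 to 15.5 CPM on vehicle. The 11 used of 13 endothelial markers summed to 347 to 516 CPM in OC sedentary and 357 to 491 CPM in vehicle sedentary libraries. In running mice the endothelial sums were 309 to 499 CPM on OC and 356 to 511 CPM on vehicle. The sums of 8 neutrophil markers were 4.81 to 20.9 CPM in OC running and 3.99 to 6.22 CPM in vehicle running libraries. In sedentary mice they were 6.11 to 10.2 CPM on OC and 5.6 to 12.2 CPM on vehicle. Those of 7 cholangiocyte markers overlapped between diets. No used marker was at 0 in all libraries. The part of these cell types in the changes of Gbp and chemokine genes was not tested.

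The sensors of foreign nucleic acid were not called in any comparison. Ifih1 encodes MDA5 and Ddx58 encodes RIG-I, which both detect viral RNA, and Dhx58 encodes LGP2, which tunes them. Their averaged log2 fold changes were 0.06 for Ifih1, 0.19 for Ddx58 and 0.06 for Dhx58, and those of the other sensors were -0.33 for Zbp1 and -0.01 for Eif2ak2, the kinase PKR. Ddx58 averaged 39.7 ± 6.17 CPM in OC sedentary and 29.3 ± 5.32 CPM in vehicle sedentary mice (SD, n = 5 each), with an adjusted p of 0.0942. Without OC sedentary replicate 4, or with library totals alone, that difference passed the threshold.

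Among the 7 transcription factors Irf7 rose on OC and the other 6 were not called. IRF7 drives the transcription of type I interferon genes, and its gene lies at 141262706 to 141266481 on the minus strand of chromosome 7. Irf7 stood at 88.9, 97.0, 126, 92.2 and 115 CPM in OC sedentary mice, against 64.0, 103, 81.6, 94.6 and 60.5 CPM in vehicle sedentary mice. Among running mice the values of Irf7 were 89.1, 95.5, 85.3, 129 and 91.1 CPM on OC, against 78.0, 60.1, 74.1, 70.0 and 85.8 CPM on vehicle. The OC libraries lay in the upper part of the vehicle range or above it, and the groups overlapped in both activity states. Irf7 had log2 fold changes of 0.36 (SE 0.15, adjusted p = 0.1) in sedentary and 0.41 (SE 0.15, adjusted p = 0.07) in running mice, neither called, and of 0.39 (SE 0.11, adjusted p = 0.0102) averaged. Irf9 and Stat2, the partners in the ISRE-binding complex, had averaged values of -0.14 and -0.04, and Irf1, an early target of interferon gamma, of -0.22 (adjusted p = 0.0951). Irf2, Irf3 and Irf8 had averaged values of -0.07, 0.06 and -0.04. With library totals alone Irf3 was called higher (0.18, adjusted p = 0.0289), and Irf7 was called in sedentary mice (adjusted p = 0.0468) and in running mice (adjusted p = 0.0306).

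Of the IFIT, IFI and IFITM effectors only Ifi35 of 7 was called. Ifi35 encodes a leucine zipper protein induced by interferon, from 101448407 to 101458698 on the plus strand of chromosome 11. Ifi35 stood at 31.0, 35.8, 25.7, 26.8 and 33.4 CPM in OC sedentary mice, against 20.5, 26.9, 23.5, 27.8 and 22.6 CPM in vehicle sedentary mice. In running mice it was 38.3, 27.6, 37.4, 37.6 and 32.0 CPM on OC, against 25.8, 21.6, 22.2, 23.4 and 25.6 CPM on vehicle. In running mice every OC library stood above every vehicle library, while in sedentary mice the groups overlapped. OC groups wholly above vehicle were found for 5.44% of all tested genes in running mice, and Ifi35 and Bst2 were the 2 such members (5.26%). Ifi35 was 1.46-fold higher in running mice (log2 fold change 0.54, SE 0.11, adjusted p = 0.00264) and 1.26-fold higher in sedentary mice (0.33, SE 0.11, adjusted p = 0.0474), with an averaged value of 0.44 (SE 0.08, adjusted p = 0.000354). The sedentary call was lost in 13 of 20 fits that left out 1 library (adjusted p up to 0.133, without OC sedentary replicate 2), with size factors from relative log expression (0.0559), without a low-count filter (0.0587) and in limma voom (0.0549).

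Ifit1, Ifit2 and Ifit3 encode proteins that bind viral RNA, and were not called in any comparison. Ifit3 averaged 19.2 ± 2.84 CPM in OC sedentary and 25.7 ± 8.63 CPM in vehicle sedentary mice, and 16.8 ± 4 CPM in OC running and 21.5 ± 5.48 CPM in vehicle running mice (SD, n = 5 each), with an averaged adjusted p of 0.0769. Ifit2 had an averaged log2 fold change of -0.40 (SE 0.19) and Ifit1 of 0.02 (SE 0.21). Ifitm2 and Ifitm3 encode membrane proteins that block viral entry, with averaged values of 0.01 and 0.11, and Ifi44 had -0.16. Ifitm3 was measured at 411, 366, 359, 333 and 391 CPM in OC sedentary mice, against 289, 298, 375, 378 and 340.2 CPM in vehicle sedentary mice. OC running mice had 343, 346, 339.8, 453 and 366 CPM, against 405, 256, 394, 377 and 334 CPM in vehicle running mice. The diets overlapped in both activity states. Ifitm3 was not called (averaged adjusted p = 0.408), but with library totals alone it was called higher (0.22, adjusted p = 0.0342).

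Bst2, which encodes tetherin, a protein that holds budding virus on the cell surface, was the 1 of 5 other antiviral effectors that was called. It lies at 71534255 to 71537456 on the minus strand of chromosome 8. Bst2 stood at 188, 219, 174, 225 and 205 CPM in OC sedentary mice, against 145, 258, 189, 179.9 and 198 CPM in vehicle sedentary mice. With wheels, the OC libraries held 287, 191, 241, 231 and 194 CPM, against 168, 148, 166, 164 and 151 CPM in the vehicle libraries. In running mice the diets did not overlap, and in sedentary mice they did, with vehicle replicate 2 the highest. Bst2 was 1.43-fold higher in running mice (log2 fold change 0.52, SE 0.13, adjusted p = 0.0112) and was not called in sedentary mice (0.06, SE 0.13, adjusted p = 0.789). The difference between these effects was 0.46 (SE 0.18) and did not pass adjustment (interaction, edgeR unadjusted p = 0.0208, adjusted p = 0.23). The averaged value of 0.29 (SE 0.09, adjusted p = 0.0258) was lost without OC running replicate 1 (0.24, adjusted p = 0.053). Rsad2, which encodes viperin, Xaf1, a pro-apoptotic factor, Rtp4 and the exonuclease gene Isg20 had averaged values of -0.07, -0.16, 0.03 and -0.04.

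Of the feedback and ubiquitin genes, Trim21, the intracellular antibody receptor, was lower. Its gene lies at 102557921 to 102565486 on the minus strand of chromosome 7. Trim21 stood at 7.58, 7.28, 7.3, 6.51 and 7.99 CPM in OC sedentary mice, against 8.86, 8.78, 9.21, 7.89 and 8.3 CPM in vehicle sedentary mice. Among running mice the values of Trim21 were 7.95, 6.31, 6.19, 7.54 and 7.49 CPM on OC, against 10.3, 6.71, 7.7, 10.3 and 9.79 CPM on vehicle. The OC libraries lay toward the low end, and the groups overlapped in both activity states. Its log2 fold change was -0.23 (SE 0.12, adjusted p = 0.209) in sedentary and -0.33 (SE 0.12, adjusted p = 0.074) in running mice, and -0.28 (SE 0.09, adjusted p = 0.0219) averaged. With library totals alone the averaged value was -0.17 and was not called (adjusted p = 0.16). Usp18, which removes ISG15 from proteins and dampens receptor signalling, had values of -0.47 in sedentary and 0.09 in running mice, and Trim25, a ligase that acts on RIG-I, of -0.10 and -0.27, none called.

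B2m, the light chain of MHC class I, was the most abundant member. B2m was measured at 1838, 1591, 1750.0, 1678 and 1734 CPM in OC sedentary mice, against 1882, 1573, 1979, 1782 and 1762 CPM in vehicle sedentary mice. In running mice it was 1580.4, 1723, 1546, 1826 and 1626 CPM on OC, against 1919.7, 1691, 1967, 1901 and 1926 CPM on vehicle. The diets overlapped in both activity states. The averaged log2 fold change of B2m was -0.12 (SE 0.06, adjusted p = 0.157), and the gene was called lower in DESeq2 (adjusted p = 0.0394).

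Wheel running changed no interferon response gene past the threshold. Running against sedentary gave 0 of 38 members on vehicle, on OC and averaged over diet, and 0 for the interaction of diet and running, against 0.0% of all tested genes in each (edgeR). By limma voom these 4 comparisons also called 0 genes, and by DESeq2 42, 1, 2 and 119 genes, none of them a member. At an unadjusted p under 0.05, edgeR gave 4 members on vehicle (10.5%, against 13.7% of all tested genes), 2 on OC (5.26%, against 6.83%), 5 averaged over diet (13.2%, against 4.75%) and 1 for the interaction (2.63%, against 17.6%).

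The 5 members of the averaged running comparison were all lower in running mice. Their log2 fold changes, running over sedentary, were -0.42 for Ifit2 (edgeR unadjusted p = 0.0409), -0.40 for Irgm2 (0.0211), -0.38 for Usp18 (0.0496), -0.21 for Trim25 (0.0228) and -0.21 for Iigp1 (0.0345), and every adjusted p was 0.955. On vehicle 26 of 38 members had a value below 0 (68.4%, against 52.6% of all tested genes), and on OC 28 (73.7%, against 50.3%). Averaged over diet 30 had a value below 0 (78.9%, against 51.4% of all tested genes), with a median of -0.09 against 0.00. Without vehicle sedentary replicate 2 that median was -0.05. Usp18 averaged 9.89 ± 3.09 CPM in vehicle running and 15.7 ± 8.14 CPM in vehicle sedentary mice, and 10.5 ± 1.57 CPM in OC running and 11.3 ± 0.770 CPM in OC sedentary mice (SD, n = 5 each).

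Levels between genes were compared as CPM per kb of exon. In vehicle sedentary mice B2m was highest at 2088 ± 176 CPM per kb (SD, n = 5), followed by Ifitm3 at 496 ± 61.4, Ifitm2 at 314 ± 19, Bst2 at 215 ± 45.3 and Iigp1 at 81.6 ± 12.9 CPM per kb. These 5 were each separated from the next by more than their SDs. Below them, each gap between neighbours was smaller than the sum of their SDs, except that between Irf3 at 19.3 ± 2.30 and Stat2 at 14.8 ± 0.864 CPM per kb. Among these genes were Igtp at 29.2 ± 10.5, Irgm2 at 23.3 ± 8.72, Isg15 at 22.5 ± 10.6 and Irf7 at 21.4 ± 4.94 CPM per kb. The lowest was Ifi44 at 1.90 ± 0.631 CPM per kb. The highest group mean was that of vehicle sedentary mice for 21 members, of OC sedentary mice for 8, of OC running mice for 5 and of vehicle running mice for 4.

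**Figure D4:**
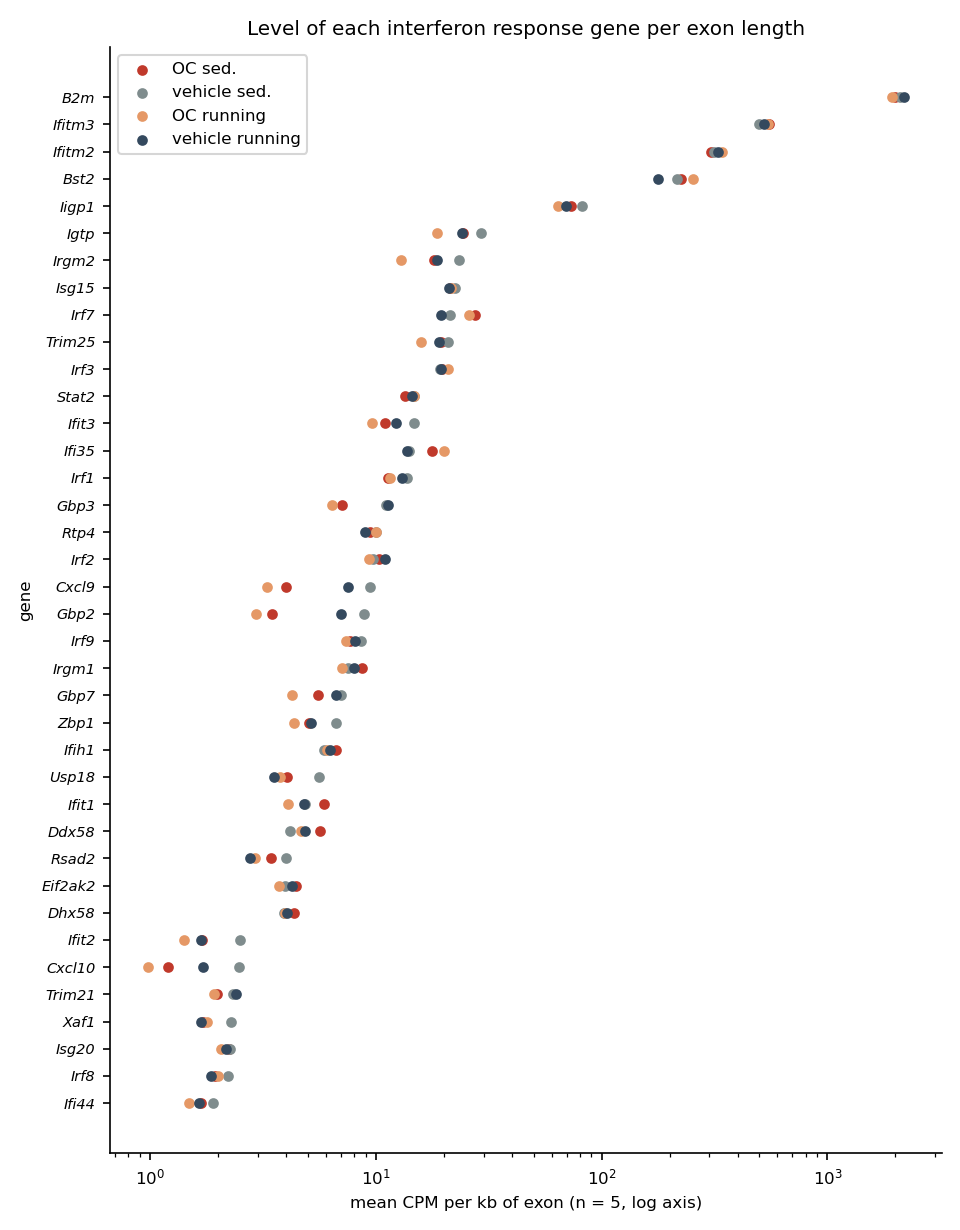
Mean CPM per kb of exon of each interferon response gene in the 4 groups (n = 5 each), on a log axis, ordered by the level in vehicle sedentary mice. B2m, Ifitm3, Ifitm2 and Bst2 stand above 150 CPM per kb in every group, and the colours separate visibly only for a few genes such as Gbp2, Cxcl9 and Cxcl10.

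The members also varied between mice of the same group. The coefficient of variation over 5 libraries had a median over the 38 members of 14.8% in OC sedentary and 24.2% in vehicle sedentary mice, and of 17.6% in OC running and 19.4% in vehicle running mice. It was largest in vehicle sedentary mice for 22 members and reached 67.7% there, for Rsad2. Vehicle sedentary replicate 2 had the highest value of its group for 21 of 38 members and replicate 5 the lowest for 21, with mean log2 CPM over the members of 5.53 and 4.76. OC running replicate 4 was the highest of its group for 25 members, and vehicle running replicate 2 the lowest of its group for 29. Without vehicle sedentary replicate 2 the diet called 4 members in sedentary mice, 2 higher and 2 lower, and 9 averaged over activity, 3 higher and 6 lower.

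**Figure D5:**
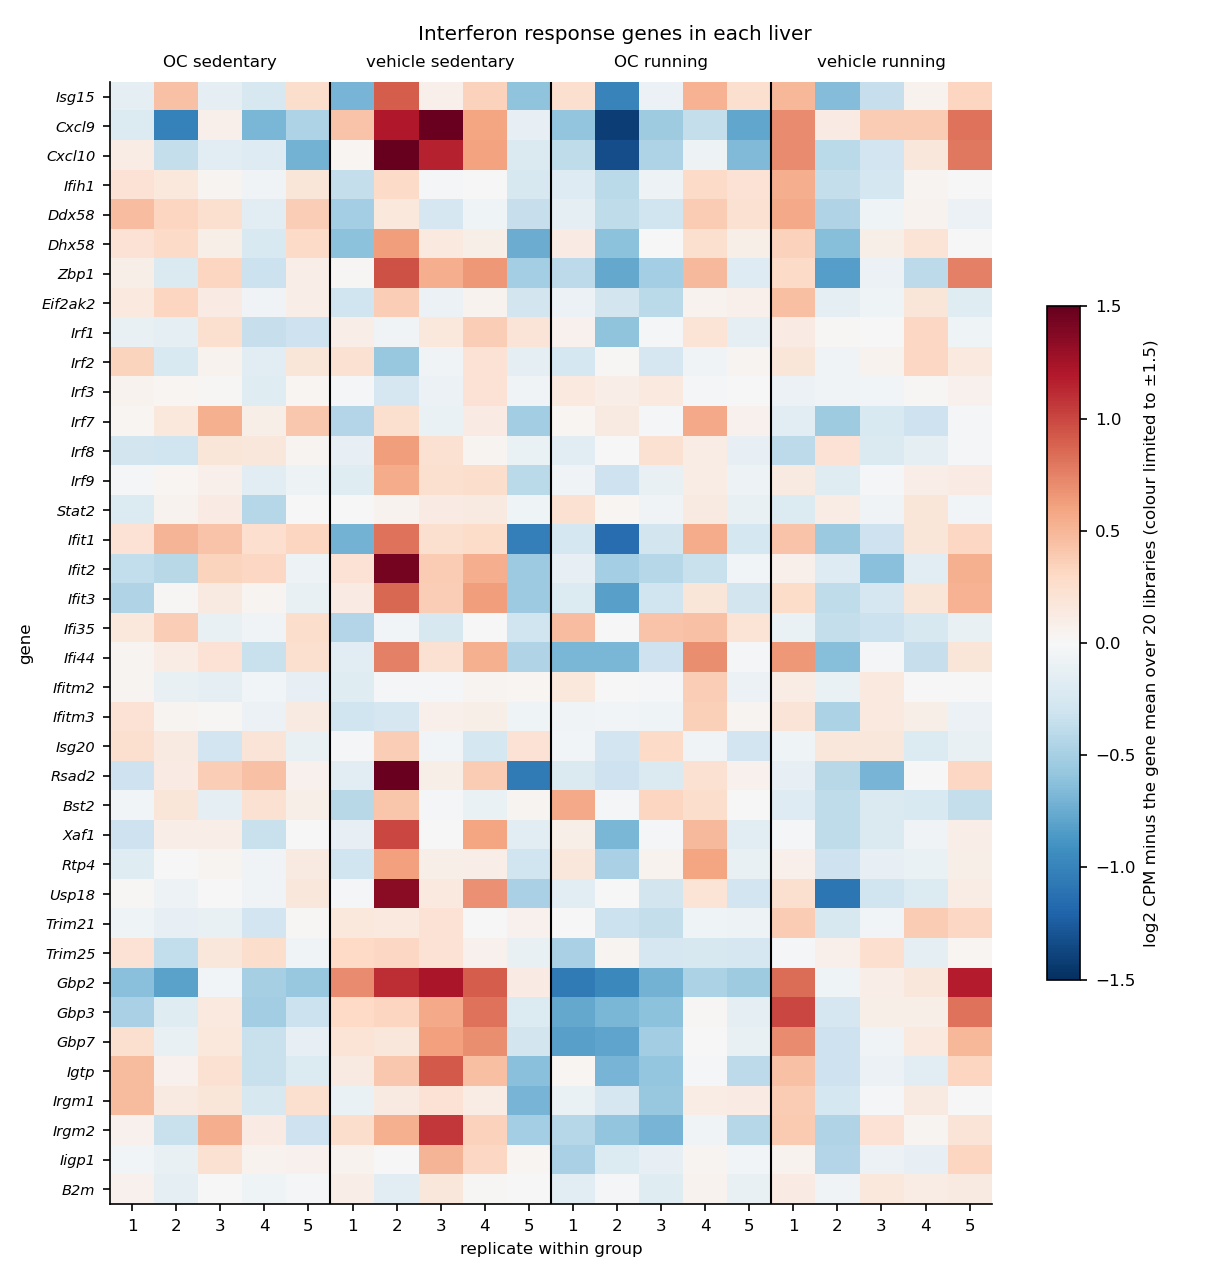
Log2 CPM of each interferon response gene in each of the 20 libraries, minus the mean of that gene over all libraries, with OC beside vehicle within each activity state and columns numbered by replicate. Vehicle sedentary replicate 2 is red for many genes and replicate 5 blue, and the rows of Gbp2, Gbp3 and Cxcl9 are mostly blue on OC.

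Genes that act before the response were counted from a list of 41 ligands, receptors, kinases and other pathway genes, none of them members, of which 26 were tested. With activity averaged 2 were higher and 2 lower on OC, which is 15.4% of the list against 22.7% of all tested genes. Ikbke, which encodes a kinase that activates IRF3 and IRF7, averaged 56.5 ± 12.9 CPM in OC sedentary and 23.5 ± 5.97 CPM in vehicle sedentary mice, and 67.1 ± 9.82 CPM in OC running and 22.6 ± 4.23 CPM in vehicle running mice (SD, n = 5 each). It was 2.67-fold higher averaged (log2 fold change 1.42, SE 0.13, adjusted p = 4.68e-08). The receptor gene Ifnar2 was 1.16-fold higher (adjusted p = 0.00872). The kinase gene Jak2 fell by 0.28 on the log2 scale (adjusted p = 0.00202) and the adaptor gene Mavs fell by 0.24 (adjusted p = 0.0418).

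In sedentary mice 4 of the 26 were called on OC, and these were higher (Ikbke, Traf3, Ticam1 and Stat3). That is 15.4% of the list, against 16.0% of all tested genes in either direction and 8.96% higher. In running mice 1 was higher (Ikbke) and 2 were lower (Jak2 and Mavs), or 11.5% against 13.0%. Of 8 interferon ligand genes used, 7 had 0 counts in all 20 libraries. Ifng, the gene of interferon gamma, had 1 count over the 5 libraries of OC sedentary mice and 0 in vehicle sedentary mice, and 2 in OC running and 1 in vehicle running mice. Transcripts of these 8 ligand genes were thus too scarce to compare between groups. Ifnb1, the gene of interferon beta, had no intact line and was not used.

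A further list held 106 other interferon-induced genes, of which 67 were tested. Averaged over activity 3 were higher (Trim14, Trim26 and Oasl1) and 7 were lower on OC (Tgtp2, Gbp6, Gbp4, Ube2l6, Ifitm1, Samd9l and Gbp10), with a median log2 fold change of -0.10 against 0.00 over all tested genes. These calls were 14.9% of the list, against 22.7% of all tested genes. In sedentary mice 2 were higher and 5 lower (10.4%, against 16.0%), and in running mice 1 was called, which was lower (1.49%, against 13.0%). With both directions pooled, these shares lay under the background in each comparison. Lower calls alone were 7 of 67 averaged (background 10.9%) and 5 of 67 in sedentary mice (7.07%). Higher calls alone were 3 of 67 averaged (11.8%) and 2 of 67 in sedentary mice (8.96%). Gbp6, a further guanylate-binding protein, averaged 10.3 ± 2.11 CPM in OC sedentary and 19 ± 7.69 CPM in vehicle sedentary mice, and 7.74 ± 2.11 CPM in OC running and 15.9 ± 5.39 CPM in vehicle running mice (SD, n = 5 each; averaged adjusted p = 0.00182). Tgtp2, an IRG GTPase, was 1.69-fold lower (adjusted p = 0.00104) and Gbp4 1.5-fold lower (adjusted p = 0.00938). Trim14, an adaptor of antiviral signalling, was 1.59-fold higher (adjusted p = 0.00235), and Trim26 1.26-fold higher (adjusted p = 0.00276).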

How the data were processed

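Liver mRNA was sequenced as stranded paired-end libraries, 1 per mouse, per the labels' protocols. The submitters' processing notes name mm10, STAR, R 4.05 and limma. The counting program, annotation and strand setting are not given in the sources used here. By the look of the values, the authors' table holds plain or expected counts, and rounding to whole numbers left the values used unchanged. Only 2 of 35504 genes, not used, had values that were not whole, so the kind of count is not settled. Of 35504 genes 23993 (67.58%) had an intact line. The rest, with displaced or doubtful values, were left out, and 0 sample columns were unused.

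Tests were run in edgeR 4.0.16 (R 4.3.3). filterByExpr kept 10207 genes holding 99.95% of the counts, and TMM factors ran from 0.99 to 1.11 in OC and from 0.90 to 1.06 in vehicle libraries. All 20 libraries entered 1 robust quasi-likelihood fit, whose terms were the 4 group means; its biological coefficient of variation was 0.178. The fit gave 7 contrasts. P-values were adjusted within each contrast (Benjamini-Hochberg, 10207 genes), and 0.05 was the threshold. The fitting steps were tested on simulated data with changes between OC and vehicle libraries only. Recovery of running or interaction effects was not tested. CPM are TMM-scaled, and folds are fitted folds. Alternatives were library totals alone, size factors from relative log expression, no low-count filter, DESeq2 1.42.0, limma voom 3.58.1, each of 20 libraries left out and, added after seeing the data, the fit without the robust option. Coordinates and exon lengths are from GENCODE vM21 (GRCm38). Every library is 1 mouse, and replicates were numbered in accession order.

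The members, marker lists and pathway lists were chosen with earlier results of these data known. Values in every library are given for the 10 called members and for the 3 with the highest CPM. Other members are given by mean or fold. Some genes of the pathway list are not reported here.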

Additional observations from a re-analysis of the deposited data

Results flagged for a closer look

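Values of the 38 genes were searched for single libraries far from the others of their group, in 152 sets of 5. A library was listed when its gap to the nearest other, divided by the group's range, was above 0.71, which chance gives in about 1 of 20 sets. There were 4 such cases, a smaller share than that. Irf3 had 59.8 CPM in OC sedentary replicate 4, against 69.0 to 70.3 CPM in the other 4. Irf7 had 129 CPM in OC running replicate 4, against 85.3 to 95.5 CPM in the others. Ifitm3 had 453 CPM in the same library, against 339.8 to 366 CPM. B2m had 1691 CPM in vehicle running replicate 2, against 1901 to 1967 CPM.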

How the results depend on the processing

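No direction of a called member reversed under any alternative run. The count of members called in sedentary mice was 4, was 2 in limma voom and ran from 2 to 6 when 1 library was left out. In running mice it was 6, with a range of 4 to 7, and averaged over activity 10, with a range of 8 to 13. Over all genes the diet's count without 1 library ran from 989 to 1766 in sedentary mice (lowest without OC sedentary replicate 1), from 804 to 1667 in running mice (804 without OC running replicate 1, 837 without replicate 3) and from 2007 to 2581 averaged. DESeq2 called 42 genes for running on vehicle, 1 on OC, 2 averaged and 119 for the interaction, against 0 in edgeR. Leaving out 1 library gave 0 to 0, 0 to 1, 0 to 1 and 0 to 2 genes in these comparisons, and 0 members in every one. The causes were not tested.

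Averaged over activity, Gbp2, Cxcl9, Cxcl10, Gbp3, Ifi35 and Irf7 passed the threshold in every alternative run. Gbp7 and Trim21 did not with library totals alone, and Bst2 did not without OC running replicate 1. No paired analysis was made, because each library came from a separate mouse and the labels name no pairing. Displaced lines removed 5 listed genes, and 5 mice per group limit small changes.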
